A study of Arabidopsis thaliana with 20 samples.

Results

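YAB2 (AT1G08465), YAB3 (AT4G00180) and TCP15 (AT1G69690) are transcription factor genes of Arabidopsis thaliana that act in the growth of leaves, flowers and stems. All spotted probes that the platform's probe table assigns to one of them, and to no other gene, were followed along the primary inflorescence stem. This gave 4 probes for 3 genes, out of 25720 tested probes and 7871 named genes with a tested probe. YAB2 had probe 11856, YAB3 had probe 28496, and TCP15 had probes 3113 and 20884. Each of the 4 was measured on all 20 arrays, and none was lost to the filter on missing values.

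RNA came from stem sections of accession Ler plants that were moved from short to long days. Stems about 10 cm long, cut on day 14 after the move, gave sections 0-3, 3-5, 5-7 and 7-9 cm from the tip, and stems about 5 cm long, cut on day 12, gave sections 2-4 and 0-2 cm. Flowers, siliques, cauline leaves and side branches had been removed. Each section was hybridised on 4 two-colour arrays against 1 common reference, the top 2 cm of the shorter stems. By the source names, the section was in Cy5 on 2 arrays and in Cy3 on the other 2. The labels name no transgene or treatment. Nothing in them ties a replicate to its own plants, and the p-values therefore cover array-to-array spread, part or all of which may be technical. All comparisons with the reference share it.

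YABBY proteins such as YAB2 and YAB3 carry a zinc finger and a helix-loop-helix domain. They are made on the abaxial side (the underside) of young leaves and floral organs, where they promote abaxial identity and blade outgrowth and hold back the KNOX genes of the shoot meristem. TCP15 is a class I member of the TCP family, which binds DNA through a noncanonical basic helix-loop-helix domain. Together with its close relative TCP14 it is known to influence cell division in leaves and flowers and to promote the growth of stem internodes.

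A value below is a log2 ratio of a section over the 0-2 cm reference, so 0 means the same relative amount of transcript in both, 1 means a doubling in the section, and no level of a gene can be read from it. The log base, given nowhere in the labels, was taken as 2, and the direction follows the order in the deposited titles. In RNA from whole sections, fewer cells of a type and less RNA per cell cannot be told apart. A difference was called where the limma adjusted p over all tested probes was under 0.05.

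Agreement between arrays differed by section. Across probes, Pearson's r between arrays of a group lay between -0.211 and 0.551 in the 0-3 cm group and between 0.131 and 0.578 in the 2-4 cm group. It was higher in the groups further down, at 0.743 or more in 3-5 cm, 0.572 or more in 5-7 cm and 0.649 or more in 7-9 cm. Such an r also depends on how far a section differs from the reference, so by itself it does not measure array quality. Against the reference 3.47% of tested probes were called in 0-3 cm and 13.5% in 2-4 cm. In the groups further down 40% or more were called. On 3 arrays, 5-7 cm replicate 4 and 7-9 cm replicates 2 and 4, the labels give the section both dyes, and the source name was followed. For 3-5 cm replicate 1 one label gives a 5 cm stem. Photomultiplier settings (Cy3 and Cy5) were 62 and 59 on the 2-4 cm arrays alone and 62 and 61 on the 3-5 cm arrays alone, so setting and section cannot be told apart there. Settings of 62 and 60 were used for all of 0-3 cm and for the first pair of arrays of 5-7 and 7-9 cm, and 63 and 60 for the second pair. Laser power was 95% for 0-3 cm replicate 2 and 90% otherwise.

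Along the stem the genes went different ways. YAB3 was called lower in the 5-7 and 7-9 cm sections, YAB2 was called slightly lower in every section but 0-3 cm, and probe 3113 of TCP15 was called higher in 2-4, 3-5, 5-7 and 7-9 cm with the largest values of the 4 probes. Probe 20884 of the same gene was called in no section. In the 0-3 cm section 0 of 4 probes passed in limma (1 at an unadjusted p under 0.05), where 3.47% of all tested probes passed, 2.18% higher and 1.29% lower. In the 2-4 cm section 1 of 4 passed as higher and 1 as lower, against 13.5% of all probes (6.63% higher, 6.89% lower). In the 3-5 cm section 1 passed as higher and 1 as lower, against 40.1% of all (19.9% higher, 20.2% lower). In the 5-7 cm section 1 passed as higher and 2 as lower, against 40% of all (19.7% higher, 20.2% lower), and in the 7-9 cm section likewise, against 43.4% of all (21.7% in each direction). With 4 probes and such a background, the counts by themselves are no result about these genes, and the values follow.

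**Figure D1:**
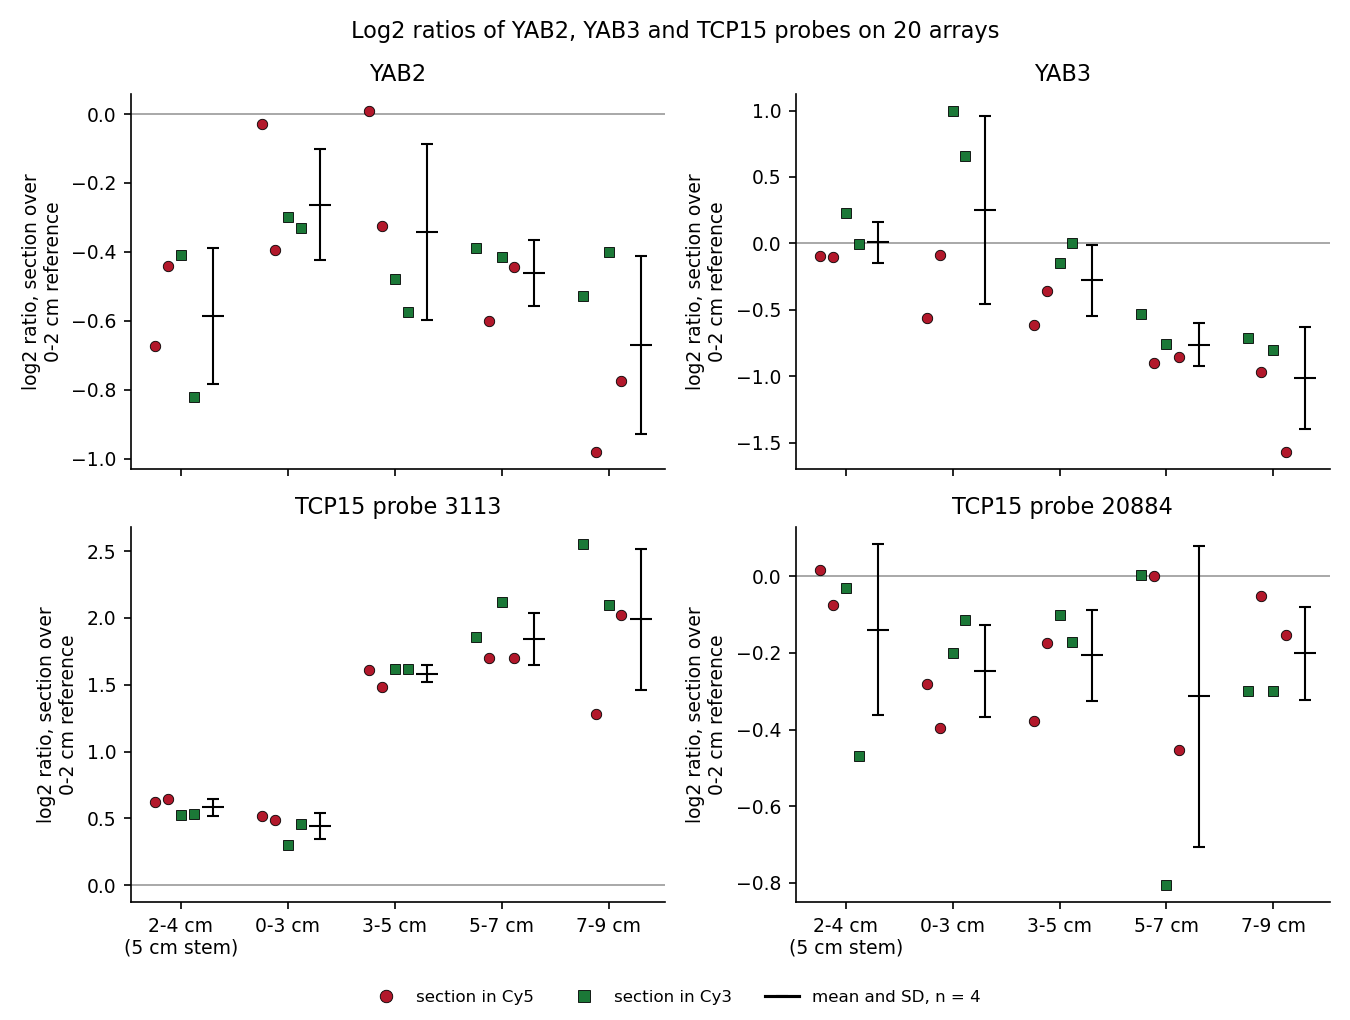
Log2 ratios (y axis, section over 0-2 cm reference) of the 4 probes on each of the 20 arrays, by section (x axis). Circles are arrays with the section in Cy5 by the source name, squares in Cy3, and black bars give the mean and SD of n = 4. Probe 3113 of TCP15 sits above 0 on all 20 arrays, YAB2 below 0 on 19, and the Cy3 arrays of YAB3 lie above its Cy5 arrays in all sections.

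YAB3 was lower in the lower part of the 10 cm stems. In the 7-9 cm section its log2 ratios on replicates 1 to 4 were -0.71, -0.97, -0.80 and -1.57. In the 5-7 cm section they were -0.53, -0.90, -0.76 and -0.86. All 8 arrays of these lower sections therefore lay below the reference. The 3-5 cm arrays had -0.61, -0.36, -0.15 and 0.0011, the 0-3 cm arrays -0.56, -0.08, 1.0 and 0.66, and the 2-4 cm arrays -0.09, -0.11, 0.23 and -0.0047. The values of 0-3 and 2-4 cm thus spread around 0, and those of 0-3 cm spread most. The 3-5 cm values had a mean of -0.28, between these and the lower sections.

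YAB3 fell by 1.01 ± 0.148 (SE, n = 4) in the 7-9 cm section relative to the reference, with limma adjusted p = 9.85e-06, a 2.02-fold decrease. In the 5-7 cm section it fell by 0.76 ± 0.148 (adjusted p = 0.00028). Without the arrays whose labels name 2 dyes, the values were -1.02 (adjusted p = 0.00225) and -0.82 (adjusted p = 0.00119). In that fit 7-9 cm kept only replicates 1 and 3, both in Cy3, at -0.71 and -0.80. Its -1.02 therefore includes a dye correction estimated in other sections. Within scanner settings 62 and 60 the 7-9 and 5-7 cm values were -0.84 (adjusted p = 0.0242) and -0.72 (adjusted p = 0.0508). Within 63 and 60 they were -1.19 (adjusted p = 0.0133) and -0.81 (adjusted p = 0.0452). In the other sections YAB3 did not pass, at -0.28 ± 0.148 in 3-5 cm (adjusted p = 0.145), 0.0070 ± 0.148 in 2-4 cm (adjusted p = 0.985) and 0.25 ± 0.148 in 0-3 cm (adjusted p = 0.411).

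The YAB3 values also moved with the dye. Over all arrays the ratio was lower by 0.505 ± 0.132 when the section carried Cy5 (limma adjusted p = 0.0143), and 16.2% of all tested probes had such a dye term. In the 0-3 cm section the 2 Cy5 arrays averaged -0.32 and the 2 Cy3 arrays 0.83. In the 7-9 cm section the means were -1.27 with Cy5 and -0.76 with Cy3, and in 5-7 cm -0.88 and -0.65, all below 0. These dyes follow the source name. Both Cy5 arrays of 7-9 cm, replicates 2 and 4, and replicate 4 of 5-7 cm have a description that gives Cy3 instead. By the descriptions 7-9 cm would hold no Cy5 array, so a ratio below 0 in either dye is not established there. The dye term is part of the fit, and by the source name each section holds both dyes equally.

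Between sections, YAB3 was lower in 7-9 cm than in 0-3 cm of 10 cm stems by a log2 difference of -1.27 ± 0.209 (limma adjusted p = 0.000156), in a comparison where 21.8% of all probes passed. The difference was -1.28 without the arrays of unclear dye (adjusted p = 0.0037), where 7-9 cm held Cy3 arrays only and its value included a dye correction from other sections. Ordered from highest to lowest mean, the sections were 0-3 cm (0.25), 2-4 cm (0.01), 3-5 cm (-0.28), 5-7 cm (-0.76) and 7-9 cm (-1.01). No neighbours in this order differed in the test. Sections further apart did: 5-7 cm lay below 0-3 cm by -1.02 ± 0.209 (adjusted p = 0.00159, with 18.1% of all probes passing), and below 2-4 cm by -0.77 ± 0.209 (adjusted p = 0.0158, 14.6% of all). The first of these missed the threshold within settings 62 and 60 (-0.97, adjusted p = 0.0575), and the second without 2-4 cm replicate 1 (-0.72, adjusted p = 0.0501). The 7-9 cm section was below 2-4 cm by -1.02 ± 0.209 (adjusted p = 0.0015, 18.6% of all). It was also below 3-5 cm by -0.73 ± 0.209 (adjusted p = 0.0316, 8.88% of all), a call that was lost without any of 7 of the 8 arrays compared. The step between 0-3 and 3-5 cm, -0.53 ± 0.209, missed the threshold (adjusted p = 0.0879). It passed without 0-3 cm replicate 1, at -0.73 (adjusted p = 0.0138).

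YAB2 showed a small decrease with little order along the stem. In the 7-9 cm section its log2 ratios were -0.53, -0.98, -0.40 and -0.77. In the 5-7 cm section they were -0.39, -0.60, -0.41 and -0.44, and in the 3-5 cm section 0.01, -0.32, -0.48 and -0.57. The 0-3 cm arrays had -0.03, -0.39, -0.30 and -0.33 and the 2-4 cm arrays -0.67, -0.44, -0.41 and -0.82. The ratio was below 0 on 19 of 20 arrays, the exception being 3-5 cm replicate 1, and the ranges of most sections overlapped. The 0-3 cm arrays, the lowest at -0.394, lay just above all 2-4 cm arrays, the highest at -0.408. The highest 7-9 cm array, replicate 3 at -0.40, was deposited in steps of 0.1. Whether it lay below all 0-3 cm arrays cannot be told. The share of all probes with such small gaps was not counted.

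Relative to the reference, YAB2 fell by 0.67 ± 0.13 in 7-9 cm (SE, n = 4, limma adjusted p = 0.000243), by 0.59 ± 0.13 in 2-4 cm (adjusted p = 0.00422), by 0.46 ± 0.13 in 5-7 cm (adjusted p = 0.00694) and by 0.34 ± 0.13 in 3-5 cm (adjusted p = 0.0402). The largest of these is a 1.59-fold decrease. In 0-3 cm it did not pass (-0.26 ± 0.13, adjusted p = 0.311). Several calls were fragile: that in 7-9 cm was lost without the 2 arrays of unclear dye in that section and 1 in 5-7 cm (-0.41, adjusted p = 0.131), and within scanner settings 63 and 60 (-0.59, adjusted p = 0.0651), while it held within 62 and 60 (-0.75, adjusted p = 0.0232). That in 5-7 cm was lost within either setting (-0.49, adjusted p = 0.124, and -0.43, adjusted p = 0.151). That in 3-5 cm was lost without replicate 2 (-0.35, adjusted p = 0.0919), replicate 3 (-0.29, adjusted p = 0.158) or replicate 4 (-0.26, adjusted p = 0.204).

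From highest to lowest mean, YAB2 ordered the sections 0-3 cm (-0.26), 3-5 cm (-0.34), 5-7 cm (-0.46), 2-4 cm (-0.59) and 7-9 cm (-0.67). None of the 10 pairs of sections passed in limma. The pair farthest apart, 7-9 over 0-3 cm, differed by -0.41 ± 0.184 (adjusted p = 0.125), and its 95% interval ran from -0.79 to -0.03, so a difference of -0.79 was within the reach of these arrays' error. Without the arrays of unclear dye it was -0.15 (adjusted p = 0.747). Whether YAB2 and YAB3 differed in this step was not tested.

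**Figure D2:**
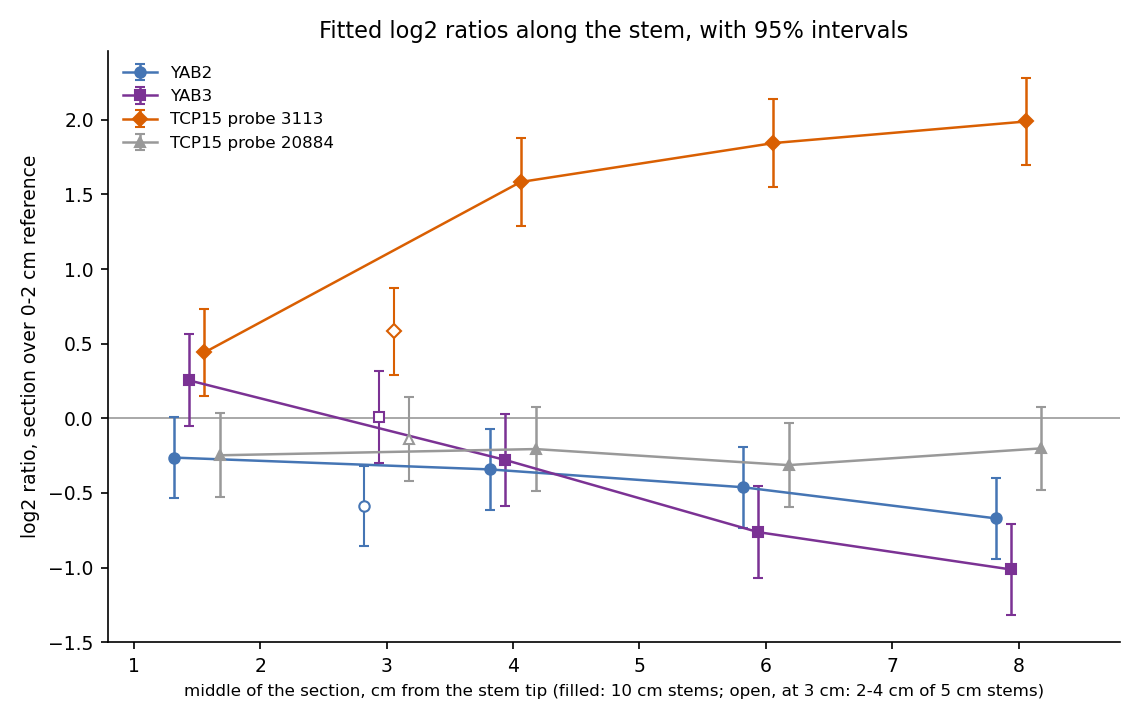
Fitted log2 ratios (y axis) against the middle of each section in cm from the tip (x axis), with 95% intervals from limma. Filled symbols joined by lines are 10 cm stems, open symbols the 2-4 cm section of 5 cm stems, and symbols are shifted sideways for legibility. YAB3 runs down to -1.01 at 7-9 cm, TCP15 probe 3113 runs up to 1.99, and TCP15 probe 20884 stays between -0.31 and -0.14.

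For TCP15 the 2 probes gave different pictures. On probe 3113 the log2 ratios in the 7-9 cm section were 2.55, 1.28, 2.10 and 2.02. In the 5-7 cm section they were 1.86, 1.70, 2.12 and 1.70, and in the 3-5 cm section 1.61, 1.49, 1.62 and 1.61. The 2-4 cm arrays had only 0.62, 0.65, 0.53 and 0.53, and the 0-3 cm arrays 0.52, 0.48, 0.30 and 0.46. The 12 arrays of sections below 3 cm on 10 cm stems were thus all at 1.28 or more, and the 8 arrays of 0-3 and 2-4 cm all at 0.65 or less. This grouping was read from the values, and the share of all probes that separate in this way was not counted.

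On this probe TCP15 rose by 1.99 ± 0.141 in 7-9 cm (SE, n = 4, limma adjusted p = 4.32e-10), by 1.84 ± 0.141 in 5-7 cm (adjusted p = 1.83e-09), by 1.58 ± 0.141 in 3-5 cm (adjusted p = 1.5e-08) and by 0.58 ± 0.141 in 2-4 cm (adjusted p = 0.00833). The first of these is a 3.97-fold increase. The increase in 2-4 cm lost its call without replicate 1 (0.54, adjusted p = 0.0547). In 0-3 cm the probe did not pass (0.44 ± 0.141, adjusted p = 0.0901), although all 4 arrays were above 0. Without the arrays of unclear dye the 7-9 and 5-7 cm values were 2.32 (adjusted p = 4.75e-08) and 1.89 (adjusted p = 1.26e-08), and without 3-5 cm replicate 1 the 3-5 cm value was 1.54 (adjusted p = 7.03e-07). The 2.32 came from Cy3 arrays of 7-9 cm only, with a dye correction from other sections. Within settings 62 and 60 the 7-9 and 5-7 cm values were 1.92 and 1.78, and within 63 and 60 they were 2.06 and 1.91.

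The sections fell into 2 levels on probe 3113. The order from the highest mean was 7-9 cm (1.99), 5-7 cm (1.84), 3-5 cm (1.58), 2-4 cm (0.58) and 0-3 cm (0.44). Among neighbours in this order, only 3-5 and 2-4 cm differed, by 1.00 ± 0.2 (limma adjusted p = 0.00247), where 11.2% of all probes passed and 1 of these 4 did. It was 0.96 without 3-5 cm replicate 1 (adjusted p = 0.011). These sections lay at overlapping distances from the tip but came from stems of different length and day, and they had different scanner settings, which cannot be told apart. On 10 cm stems alone, 3-5 cm exceeded 0-3 cm by 1.14 ± 0.2 (adjusted p = 0.000457), with 17% of all probes and 1 of 4 here passing. Further down, 5-7 over 3-5 cm was 0.26 ± 0.2 (adjusted p = 0.516, interval -0.15 to 0.68) and 7-9 over 5-7 cm was 0.14 ± 0.2 (adjusted p = 1 when rounded, interval -0.27 to 0.56). The step of 7-9 over 3-5 cm, 0.41 ± 0.2 (adjusted p = 0.23), passed without 7-9 cm replicate 2, the lowest array there, at 0.63 (adjusted p = 0.0303).

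In 5-7 over 3-5 cm and in 7-9 over 5-7 cm limma called 0 of the 4 probes. Of all probes 5.9% passed in 5-7 over 3-5 cm, and 1 of 4 here had an unadjusted p under 0.05. In 7-9 over 5-7 cm 0.00389% of all probes passed, which is 1 probe, and 0 of 4 here had an unadjusted p under 0.05. Between 0-3 and 2-4 cm 0.26% of all probes and 0 of these 4 passed, with 0 at an unadjusted p under 0.05.

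Probe 20884, also assigned to TCP15, stayed near the reference. Its ratios were -0.30, -0.05, -0.30 and -0.15 in 7-9 cm, 0.0046, 0, -0.81 and -0.45 in 5-7 cm, and -0.38, -0.17, -0.10 and -0.17 in 3-5 cm. In 0-3 cm they were -0.28, -0.40, -0.20 and -0.11, and in 2-4 cm 0.02, -0.07, -0.03 and -0.47. Over all sections 17 of 20 arrays thus lay below 0, most of them only slightly. The fitted values ran from -0.31 ± 0.135 in 5-7 cm (limma adjusted p = 0.0702) to -0.14 ± 0.135 in 2-4 cm (adjusted p = 0.583), and none of the 10 pairs of sections passed. Without 5-7 cm replicate 1 or 2 the 5-7 cm value passed, at -0.44 (adjusted p = 0.0316) and -0.42 (adjusted p = 0.0445). In 7-9 cm the 95% interval was -0.48 to 0.08, which does not reach the 1.99 of probe 3113.

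Probe 3113 exceeded probe 20884 on all 20 arrays, by 2.19 ± 0.637 in 7-9 cm (SD, n = 4), 2.16 ± 0.544 in 5-7 cm, 1.79 ± 0.144 in 3-5 cm, 0.69 ± 0.182 in 0-3 cm and 0.72 ± 0.199 in 2-4 cm. The probe table gives an accession for the first probe and none for the second, and probe sequences were not used here. Which of them measures the TCP15 transcript, or which transcripts each detects, was not tested. For 216 genes with exactly 2 tested probes, Pearson's r between the 2 over the arrays had a median of 0.103. For TCP15 it was -0.215. A low r can also arise where neither probe changes between sections, so the median is by itself no measure of discord. In the 7-9 cm section 87 of the 216 (40.3%) had 1 probe called and the other not, 54 had both called and 75 neither. Since 43.4% of all tested probes were called there, such splits by the threshold are by themselves no measure of discord. In 43 of the 54 both probes went the same way. The distance between the TCP15 probes, 2.19, was nevertheless exceeded by only 7 of the 216 genes, for which the median distance was 0.423.

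**Figure D3:**
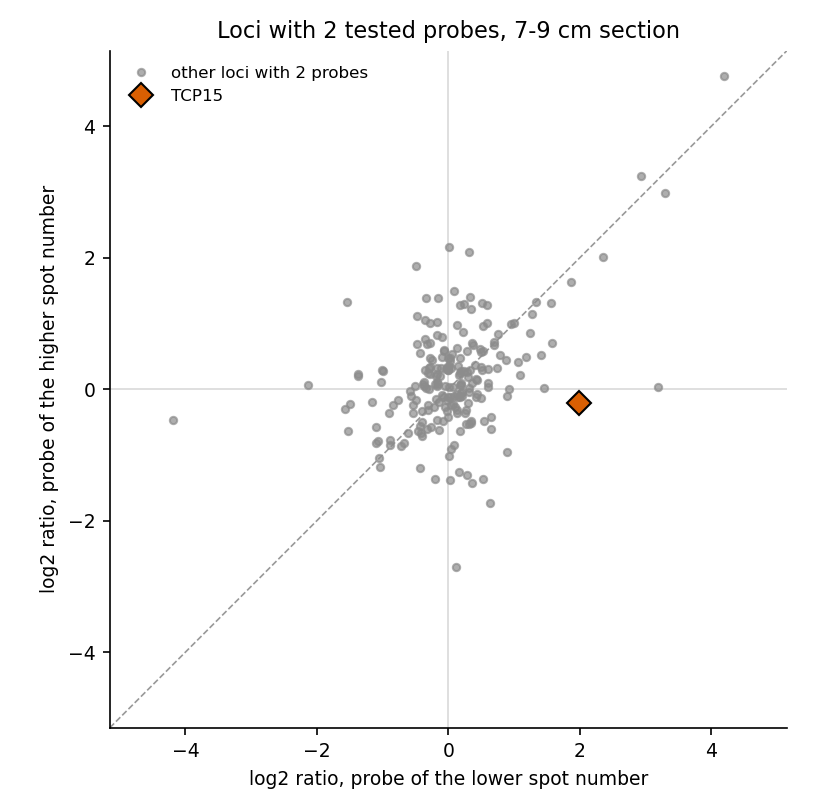
Each point is a gene with exactly 2 tested probes, with the fitted log2 ratio of 7-9 cm over the 0-2 cm reference for the probe of the lower spot number (x axis) and of the higher one (y axis). The dashed line marks equal values. TCP15, at 1.99 and -0.20, lies far from it.

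Among all 25720 tested probes, 333 had a higher ratio than TCP15 probe 3113 in the 7-9 cm section, so 98.7% of probes lay below it. YAB3 had 7.40% of probes below it there, YAB2 13.7% and TCP15 probe 20884 34.4%. In the 0-3 cm section the same probes stood at 94.5% for probe 3113, 84.6% for YAB3, 16.5% for YAB2 and 17.7% for probe 20884. The medians of all probes were 0.008 in 7-9 cm and -0.017 in 0-3 cm. Blocks of the array were taken as runs of 600 spot numbers, an assumption about the layout. The 4 probes then fell in blocks 20, 48, 6 and 35. The median ratios of these blocks averaged between -0.077 and 0.063 in the 5 sections, small beside the called values.

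**Figure D4:**
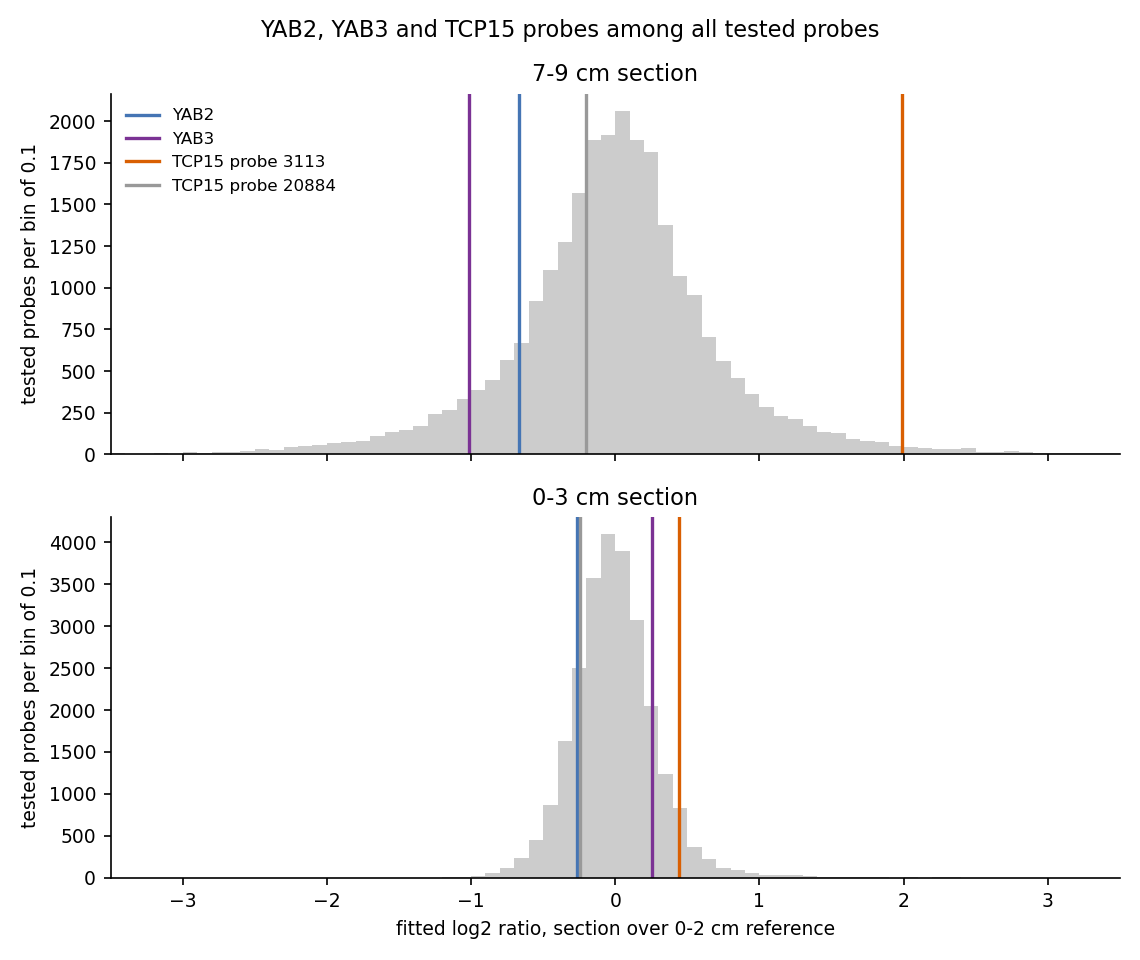
Histograms of fitted log2 ratios of all 25720 tested probes (x axis, 0.1 per bin) with the number of probes per bin (y axis), in the 7-9 cm and the 0-3 cm section. Vertical lines mark the 4 probes. The spread of all probes is wider in 7-9 cm, where probe 3113 lies in the upper tail at 1.99 and YAB3 at -1.01.

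Other genes of these families had few probes named here. In the YABBY family 4 of 6 genes were measured. In the 7-9 cm section 0 rose, 2 fell (YAB2 and YAB3) and 2 did not pass, where 21.7% of all probes were called lower. Both genes that fell are those described above. YAB5, another YABBY gene of leaves, had ratios between -0.40 and 0.99 in 7-9 cm and between -1.0 and 1.73 in 0-3 cm. Its arrays of 1 section differed by more than any section mean, and it passed in no section (0.25 ± 0.327 in 7-9 cm, limma adjusted p = 0.579). INO, a YABBY gene of the outer ovule integument, ranged from -0.08 to 0.10 in 7-9 cm and did not pass either (0.02 ± 0.181, adjusted p = 0.933).

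Of 13 class I TCP genes listed, TCP15 and the locus AT2G37000 had a probe, a locus whose place in the list is not annotated in the gene table used. AT2G37000 rose by 0.62 ± 0.179 in 5-7 cm (limma adjusted p = 0.00854) and by 0.51 ± 0.179 in 3-5 cm (adjusted p = 0.028), and had 0.44 ± 0.179 in 7-9 cm (adjusted p = 0.0504). With TCP15 represented by probe 3113, 2 of 2 were called higher in 3-5 cm (19.9% of all probes) and in 5-7 cm (19.7% of all), and 1 of 2 in 7-9 cm (21.7% of all), where the median was 1.22. With probe 20884 in its place, a choice added after seeing the data, 1 of 2 was called higher in 3-5 and in 5-7 cm and 0 of 2 in 7-9 cm, where the median was 0.12. None of the 11 class II TCP genes or of the 4 class I KNOX genes had a probe named here.

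SPY, which encodes an O-glycosyltransferase that acts with TCP14 and TCP15, was the 1 measured gene of 9 in a list of growth genes around them. It rose by 0.55 ± 0.167 in 7-9 cm (limma adjusted p = 0.011) and by 0.51 ± 0.167 in 5-7 cm (adjusted p = 0.018), and it was near 0 in 3-5 cm (0.06 ± 0.167, adjusted p = 0.804). In 7-9 cm its 4 arrays lay between 0.30 and 0.70.

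Of 13 genes of organ polarity, 2 were measured. PHV, a class III HD-ZIP gene of the adaxial side, fell in 3-5, 5-7 and 7-9 cm, and in 7-9 cm by 0.57 ± 0.201 (limma adjusted p = 0.0256) with arrays from -1.32 to 0.30. SEU, a partner of the co-repressor LEUNIG, which binds YABBY proteins, rose by 0.65 ± 0.168 in 5-7 cm (adjusted p = 0.00393) with arrays from -0.20 to 1.37, and did not pass in 7-9 cm (0.33 ± 0.168, adjusted p = 0.118). The list's median in 7-9 cm was -0.12.

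Of 15 cell cycle genes listed only AUR2 and HTB2 were measured. Both fell in 2-4, 3-5, 5-7 and 7-9 cm, where 6.89%, 20.2%, 20.2% and 21.7% of all probes were called lower, and their median was -1.96 in 7-9 cm. In 0-3 cm AUR2 fell by 0.90 ± 0.184 (limma adjusted p = 0.00693, with 1.29% of all probes called lower) and HTB2 did not pass (-0.32 ± 0.171, adjusted p = 0.353). AUR2, an Aurora kinase gene, fell by 2.04 ± 0.184 in 7-9 cm (limma adjusted p = 1.44e-08) with arrays from -2.37 to -1.60. HTB2, a histone H2B gene, fell by 1.88 ± 0.171 (adjusted p = 1.62e-08) with arrays from -2.10 to -1.62. Any part of a changing share of dividing cells in the values of YAB2, YAB3 or TCP15 was not tested.

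Markers of other tissues could hardly be read. None of the 13 flower and shoot apex markers had a probe named here, and of 10 fibre and vessel markers only GUT2, a gene of xylan synthesis, did. GUT2 passed in no section and had 0.08 ± 0.233 in 7-9 cm (limma adjusted p = 0.819), with arrays from -0.73 to 0.52. The labelled tissue could therefore not be checked against its own markers.

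The probes most like each member over the 20 arrays were sought among 8000 probes of other named genes (7999 for TCP15), with Pearson's r as a description, since all 20 values share the reference and the section means. For TCP15 probe 3113 they were GAMMA-VPE (AT4G32940), a vacuolar processing enzyme, with r = 0.965, AT4G33150 with r = 0.952 and AT1G22720 with r = 0.943. GAMMA-VPE had section means of 0.57 in 0-3 cm, 0.95 in 2-4 cm, 3.27 in 3-5 cm, 4.02 in 5-7 cm and 3.90 in 7-9 cm. For YAB3 they were AT1G65010 (r = 0.92), AT2G24440 (r = 0.903) and AT1G61100 (r = 0.899). The mean of AT1G65010 was 0.02 in 0-3 cm, -0.52 in 3-5 cm, -0.74 in 5-7 cm and -1.18 in 7-9 cm.

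Likeness was weaker for the other probes. The nearest to YAB2 were AT2G25690 (r = 0.726), AT2G22150 (r = 0.695) and AT2G42990 (r = 0.675). The nearest to TCP15 probe 20884 were AT2G42860 (r = 0.78), AT1G02460 (r = 0.777) and RAPTOR1 (r = 0.759), a partner of the TOR kinase. No gene was shared between the lists of the 2 TCP15 probes.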

How the data were processed

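Log2 ratios of sections over the 0-2 cm reference were taken from the deposited value table of 20 spotted arrays (28800 spots, 25739 with a value). A ScanArray Express instrument read the slides, per the labels. How the deposited log2 values were background-corrected and normalized, with what software and to what log base, is not given in the sources used here. Spot intensities were not analysed here, so the signal over background of a probe is unknown. Precision depends on having 4 arrays a section. The values of 3 arrays were deposited in steps of 0.1.

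Probes measured on at least 3 of 4 arrays in every group were tested (25720). Of 8519 annotated probes, 8302 had 1 gene matched to the RefSeq table of the TAIR10.1 assembly, used for names only. limma 3.58.1 in R 4.3.3 fitted a mean for each of 5 sections and a dye term to the 20 arrays together, leaving 14 residual degrees of freedom, with eBayes and two-sided tests with Benjamini-Hochberg adjustment over all tested probes. Testing a section mean against 0 leaves out the spread of the reference. Comparisons with the reference share it. The fit was tested on simulated data.

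Named were all probes of the 3 genes, all measured YABBY and TCP genes, up to 3 genes of each other list that passed most often, and the 3 probes most correlated with each member. In lists a locus with more than 1 probe was read from the one measured on most arrays (ties, the lower number). The members and lists were chosen with earlier results of these data known. Of the 10 pairs of sections 5 were added after seeing the data, to order the sections. Alternatives covered centring, scaling, block medians, dye, scanner setting, replicate and random blocks, array weights, filters, unclear labels and each array left out.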

Additional observations from a re-analysis of the deposited data

Results flagged for a closer look

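Of 20 sets of 4 arrays (4 probes in 5 sections), 1 held an array far from the others by Dixon's 95% limit, as chance gives for about 1 in 20. On TCP15 probe 3113, 3-5 cm replicate 2 had 1.49, below the other 3 arrays, which lay between 1.61 and 1.62.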

How the results depend on the processing

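Of 60 values (4 probes in 15 comparisons) 33 kept their direction and side of the threshold under every alternative run for them, among them YAB3 in 7-9 cm and TCP15 probe 3113 in 3-5, 5-7 and 7-9 cm, each against the reference. Values that turned their sign were uncalled in the fit as reported. Arrays of different sections with the same replicate number had correlations of deviations from -0.222 to 0.247 (median -0.0669). The median was 0.0150 for different numbers. Deviations were taken after section means and dye were fitted, so they cannot show whether such arrays share plants or RNA. The replicate block changed no call, and TCP15 probe 3113 in 7-9 cm had 1.99 with it (limma adjusted p = 3.84e-09). Values below are log2 differences, and where a section stands alone it is over the reference. With centring and scaling, TCP15 probe 3113 passed in 0-3 cm (0.58), YAB2 no longer in 3-5 cm (-0.29), and YAB3 no longer in 5-7 over 2-4 cm (-0.68) and 7-9 over 3-5 cm (-0.55). YAB2 then turned in 3-5 over 0-3 cm (0.049) and 7-9 over 2-4 cm (0.21), and TCP15 probe 20884 in 7-9 over 2-4 cm (0.020) and 5-7 over 0-3 cm (0.027). With block medians removed, YAB3 passed in 5-7 over 3-5 cm (-0.57) and turned in 2-4 cm (-0.050), and probe 20884 turned in 7-9 over 3-5 cm (-0.038). Without a dye term YAB3 was lost in 5-7 over 2-4 cm (-0.77) and 7-9 over 3-5 cm (-0.73). With the scanner setting as a block probe 20884 turned in 5-7 over 0-3 cm (0.10). Within settings 62 and 60, the 5-7 cm calls of YAB2 (-0.49) and YAB3 (-0.72) and YAB3 in 5-7 over 0-3 cm (-0.97) were lost, and probe 20884 turned in 5-7 cm (0.0023), 7-9 over 5-7 cm (-0.18) and 5-7 over 0-3 cm (0.25). Within 63 and 60 YAB2 was lost in 5-7 cm (-0.43) and 7-9 cm (-0.59). Random blocks of replicates 1 with 2 and 3 with 4 (correlation 0.196) lost YAB2 in 3-5 cm (-0.34) and YAB3 in 7-9 over 3-5 cm (-0.73). Blocks of 1 with 3 and 2 with 4 (-0.203) added TCP15 probe 3113 in 0-3 cm (0.44), probe 20884 in 5-7 cm (-0.31) and YAB3 in 3-5 over 0-3 cm (-0.53). Array weights added probe 3113 in 0-3 cm (0.40) and YAB3 in 3-5 over 0-3 cm (-0.65), and turned YAB2 in 3-5 over 0-3 cm (0.018) and probe 20884 in 3-5 over 0-3 cm (-0.040) and 7-9 over 0-3 cm (-0.031). Without the arrays of unclear dye YAB2 was lost in 7-9 cm (-0.41) and YAB3 in 7-9 over 3-5 cm (-0.74), while YAB2 turned in 7-9 over 5-7 cm (0.041) and 7-9 over 2-4 cm (0.18), and probe 20884 in 7-9 over 5-7 cm (-0.017), over 0-3 cm (-0.029) and over 3-5 cm (-0.071). In that fit 7-9 cm held Cy3 arrays only, so its values include a dye correction estimated in other sections. Leaving out 1 array at a time ended a call somewhere for YAB2 in 3-5 cm (-0.47 to -0.26), TCP15 probe 3113 in 2-4 cm (0.53 to 0.63) and YAB3 in 5-7 over 2-4 cm (-0.86 to -0.68) and 7-9 over 3-5 cm (-0.84 to -0.62). It added one for YAB3 in 3-5 over 0-3 cm (-0.73 to -0.36), probe 3113 in 7-9 over 3-5 cm (0.23 to 0.63) and probe 20884 in 5-7 cm (-0.44 to -0.15). It turned YAB3 in 2-4 cm (-0.047 to 0.10), YAB2 in 3-5 over 0-3 cm (-0.21 to 0.0047), 5-7 over 3-5 cm (-0.20 to 0.0066) and 7-9 over 2-4 cm (-0.18 to 0.027), and probe 3113 in 7-9 over 5-7 cm (-0.028 to 0.37). For probe 20884 it turned 3-5 over 0-3 cm (-0.021 to 0.11), 7-9 over 0-3 cm (-0.016 to 0.10), 3-5 over 2-4 cm (-0.18 to 0.0041), 7-9 over 3-5 cm (-0.066 to 0.052), 5-7 over 3-5 cm (-0.23 to 0.059), 7-9 over 5-7 cm (-0.054 to 0.24) and 5-7 over 0-3 cm (-0.19 to 0.10). Fewer arrays enter the fits that leave some out, and the cause of the other changes was not tested.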
